A study of Homo sapiens with 18 samples.

Results

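The 7 measured UGT2B genes of the androgen glucuronidation pathway (UGT2B4, UGT2B7, UGT2B10, UGT2B11, UGT2B15, UGT2B17 and UGT2B28) and UGDH were examined by RNA Seq in prostate cancer cells. These 8 genes were chosen by name from the 60675 genes listed in each count file. UDP-glucuronosyltransferases of the UGT2B family sit in the endoplasmic reticulum and join glucuronic acid to lipophilic substrates, which makes them water soluble and ready for export. UGT2B15 and UGT2B17 are the enzymes best known for conjugating dihydrotestosterone and its metabolites in the prostate, a step that ends androgen action. UGDH oxidises UDP-glucose to UDP-glucuronic acid, the sugar donor that all of these enzymes consume.

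The data were gene counts of 18 libraries, 3 in each of 6 groups, from LNCaP, an androgen-dependent prostate cancer line, and its castrate resistant derivative C4-2 (LNCaP:C42). Each line had control cells that received scrambled siRNA (siScr) and vehicle, siScr cells that received the synthetic androgen R1881 (1 nM), and cells with siRNA pools against both KDM1A and KDM7A (dual knockdown) with R1881. All cells were transfected and were grown in medium with charcoal-stripped serum, and the siRNA was a transient pool, so that no group was a clone or a knockout. Libraries of dual knockdown with vehicle were not analysed here, and in bulk RNA fewer cells expressing a gene and less RNA per cell cannot be told apart.

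Total counts ranged from 3182604, in replicate 3 of C4-2 with vehicle, to 20154243, and the next lowest was 10485096. The C4-2 vehicle libraries carry C4-2 in their titles but LNCaP as their cell line, and the titles were followed. Of 606 genes that differed between the lines under dual knockdown, 90.1 to 91.1% were nearer to the C4-2 level in these libraries, against 11.7 to 12.5% in LNCaP with vehicle. Dual knockdown lowered KDM1A by a log2 fold change (log2FC) of -1.05 in LNCaP and -3.12 in C4-2, and KDM7A differed by -0.93 and -2.51, the LNCaP value being under the fold change threshold. R1881 raised KLK3, TMPRSS2 and FKBP5, androgen receptor targets, by 3.70, 4.13 and 4.24 in LNCaP and by 4.16, 3.11 and 3.26 in C4-2. All 7 luminal prostate markers were detected in every group. Summed markers of other cells reached at most 1.60 CPM for basal (3 genes), 9.03 CPM for hepatocyte (9 genes), 20.8 CPM for endothelial (2 genes) and 36.7 CPM for fibroblast genes (5 genes). The 3 leukocyte markers summed to 2.04 to 3.52 CPM in C4-2 with vehicle and to at most 0.734 CPM in the other groups, and the part of this in the C4-2 values was not tested. The methods give 3 siRNA samples per group without stating separate cultures, so p-values measure the spread between these libraries, which may be technical.

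The UGT2B genes lie together on chromosome 4 of GRCh38, and UGDH lies apart on the same chromosome. In the files, UGT2B17 (ENSG00000197888) spans chr4:68537184-68568527 and UGT2B15 (ENSG00000196620) spans chr4:68537413-68670628, both on the minus strand. UGT2B10 (ENSG00000109181) follows at chr4:68815993-68831196 on the plus strand, UGT2B11 (ENSG00000213759) at chr4:69004618-69214731 on the minus strand and UGT2B7 (ENSG00000171234) at chr4:69051363-69112987 on the plus strand. UGT2B28 (ENSG00000135226) spans chr4:69280487-69423402 on the plus strand and UGT2B4 (ENSG00000156096) spans chr4:69480165-69526014 on the minus strand. UGDH (ENSG00000109814) spans chr4:39498755-39528311 on the minus strand. All are protein coding, and the annotation holds 5 other UGT2B entries, which are pseudogenes.

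The UGT2B genes are close copies, and the start of their coding sequence shows how close. The first 60 coding bases of 5 members are given from GENCODE 29 (GRCh38), with capitals at bases that differ from, or have no partner in, the aligned UGT2B15 sequence. They are shown because reads that match 2 copies equally well could be lost to both in the counts. They lie at chr4:68670559-68670618 for UGT2B15, chr4:68568425-68568484 for UGT2B17, chr4:69214663-69214722 for UGT2B11, chr4:69280501-69280560 for UGT2B28 and chr4:68816020-68816079 for UGT2B10, each on the strand of its gene.
UGT2B15: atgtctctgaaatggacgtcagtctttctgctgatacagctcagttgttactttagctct
UGT2B17: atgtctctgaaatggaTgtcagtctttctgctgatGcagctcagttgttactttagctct
UGT2B11: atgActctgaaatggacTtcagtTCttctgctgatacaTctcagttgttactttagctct
UGT2B28: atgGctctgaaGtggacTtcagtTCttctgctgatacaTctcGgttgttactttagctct
UGT2B10: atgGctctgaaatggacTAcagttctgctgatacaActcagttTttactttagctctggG
Over the whole coding sequence UGT2B11 and UGT2B28 were 97.0% identical, UGT2B15 and UGT2B17 96.5%, and UGT2B10 and UGT2B11 95.0%. The least alike pair was UGT2B15 and UGT2B28, at 84.1%. Of the 100-base stretches of its transcripts, UGT2B15 and UGT2B17 each shared 12.7% exactly with another UGT gene or pseudogene, UGT2B11 8.26%, UGT2B10 6.27% and UGT2B28 5.40%, whereas UGT2B7, UGT2B4 and UGDH shared none. At 150 bases, the length of an untrimmed read, UGT2B15 and UGT2B17 each shared 4.88%, UGT2B11 1.23%, and UGT2B10 and UGT2B28 none. Multi-mapping reads were not counted, so the levels of these 5 genes may be too low, by an amount that was not tested. Exons also overlap by 114 bases between UGT2B15 and UGT2B17, by 498 between UGT2B28 and UGT2B25P, by 418 between UGT2B11 and AC111000.4 and by 293 between UGDH and UGDH-AS1, and counting did not use strand.

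UGT2B15 and UGT2B17 were the main UGT2B transcripts of LNCaP without androgen, and both were lower with R1881. Levels are CPM, the counts of a gene scaled to a common library size by edgeR. UGT2B15 in LNCaP was at 1129.6, 1117 and 1084 CPM with vehicle and at 404, 482 and 407 CPM with R1881. Every R1881 library lay below every vehicle library. The decrease in UGT2B15 was a log2FC of -1.38 with an SE of 0.067 (adjusted p = 2.16e-11). This and all adjusted p that follow are from edgeR's quasi-likelihood F-test, adjusted by Benjamini and Hochberg unless another tool is named. UGT2B17, its closest copy, was at 598, 602 and 624 CPM with vehicle and at 303, 368 and 326 CPM with R1881. Again the groups did not overlap, but the log2FC of -0.89 (adjusted p = 2.50e-09, SE 0.061) fell short of the threshold of 1 on the log2 scale, a 2-fold change.

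In C4-2 the same pair started far lower and was lower again with R1881. UGT2B15 was at 94.5, 85.9 and 117 CPM with vehicle and at 26.6, 27.4 and 22.5 CPM with R1881, a log2FC of -1.94 (SE 0.12, adjusted p = 1.85e-08). UGT2B17 was at 31.7, 28.1 and 35.5 CPM with vehicle and at 9.68, 7.53 and 6.55 CPM with R1881, a log2FC of -1.98 (SE 0.15, adjusted p = 1.62e-07). The groups were well apart in each case. Without replicate 3 of C4-2 with vehicle, the shallow library, the log2FC were -1.82 for UGT2B15 and -1.91 for UGT2B17.

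UGT2B11 and UGT2B28 moved the other way and were raised by R1881 in both lines. UGT2B11, whose substrates are less well defined, was at 39.4, 47.1 and 47.8 CPM in LNCaP with vehicle and at 870.3, 1135 and 933 CPM with R1881. The increase in UGT2B11 was 4.43 as log2FC, with an SE of 0.096 (adjusted p = 3.95e-16). UGT2B28, which can conjugate androgens and oestrogens, was at only 2.45, 3.29 and 3.13 CPM with vehicle and reached 199, 269 and 203 CPM. Its log2FC of 6.18 (SE 0.13, adjusted p = 3.86e-16), a 72.6-fold increase, was the largest of the 8 genes in this comparison. It was 5.51 when all libraries were thinned to the depth of the shallowest.

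The rise was smaller in C4-2. UGT2B11 went from 52.2, 43.0 and 24.8 CPM to 197, 191 and 185 CPM, a log2FC of 2.17 (SE 0.15, adjusted p = 6.75e-08), and the lowest vehicle value was that of the shallow library. Without that library the log2FC was 2.00. UGT2B28 went from 11.6, 11.6 and 10.8 CPM to 105, 99.5 and 101 CPM, a log2FC of 3.15 (SE 0.085, adjusted p = 2.52e-12). All R1881 libraries lay above all vehicle libraries for both genes.

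**Figure D1:**
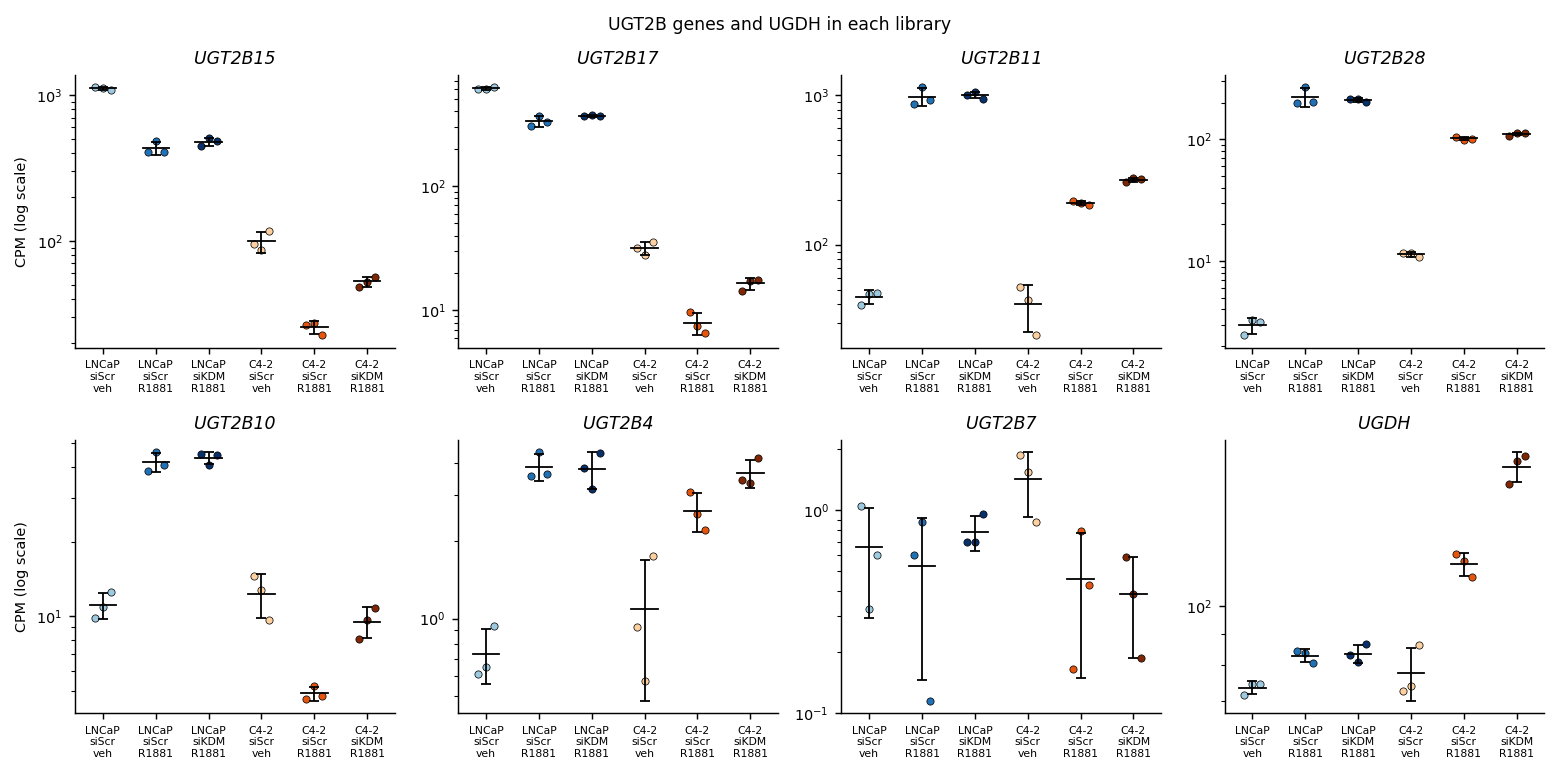
Level of each of the 8 genes in the 18 libraries, as CPM on a log axis (vertical) in the 6 groups (horizontal; veh, vehicle; siKDM, dual knockdown of KDM1A and KDM7A). Points are libraries, and the line and bar are the mean and SD of 3. UGT2B15 and UGT2B17 step down from vehicle to R1881 in both lines, UGT2B11 and UGT2B28 step up, and UGT2B10 steps up in LNCaP and down in C4-2.

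UGT2B10, known for conjugating amines such as nicotine, changed in opposite directions in the lines. In LNCaP it was at 9.80, 10.9 and 12.5 CPM with vehicle and at 38.7, 45.8 and 40.7 CPM with R1881, a log2FC of 1.89 (SE 0.096, adjusted p = 4.31e-11). In C4-2 it was at 14.5, 12.8 and 9.61 CPM with vehicle and at 4.62, 5.23 and 4.77 CPM with R1881, a log2FC of -1.39 (SE 0.17, adjusted p = 1.89e-05). Under other settings of the processing the C4-2 value ran from -1.41 to -1.004, the last only just past the threshold, and UGT2B10 stayed called. The vehicle levels of the lines overlapped, and with R1881 the libraries of the lines were widely apart.

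UGT2B4, which conjugates bile acids, and UGT2B7, an enzyme of opioids and steroids, were both low. UGT2B4 in LNCaP was at 0.613, 0.649 and 0.934 CPM with vehicle and at 3.56, 4.39 and 3.62 CPM with R1881, an increase of 2.35 as log2FC (SE 0.25, adjusted p = 8.50e-07). In C4-2 it was at 0.932, 0.573 and 1.75 CPM with vehicle and at 3.08, 2.53 and 2.20 CPM with R1881, a log2FC of 1.54 (SE 0.33, adjusted p = 0.00237) on 34 counts with vehicle in all. This call was lost when all libraries were thinned to the depth of the shallowest (log2FC 1.14, adjusted p = 0.111). UGT2B7 overlapped between groups in LNCaP, at 1.05, 0.325 and 0.604 CPM with vehicle and 0.602, 0.879 and 0.115 CPM with R1881. In C4-2 UGT2B7 was at 1.86, 1.55 and 0.874 CPM with vehicle and at 0.165, 0.787 and 0.428 CPM with R1881. Its log2FC there was -1.75 (SE 0.49, adjusted p = 0.0143), and adjusted p = 0.0567 with DESeq2's Wald test. The call was also lost without replicate 1 of C4-2 with vehicle (adjusted p = 0.0808) and without replicate 1 or 3 of C4-2 siScr with R1881 (adjusted p = 0.0671 and 0.0558), and without replicate 2 of that group the log2FC was -2.38.

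UGDH stayed under the fold change threshold in both lines. In LNCaP it was at 71.4, 74.5 and 74.7 CPM with vehicle and at 84.6, 83.8 and 80.6 CPM with R1881, a log2FC of 0.16 (SE 0.060, adjusted p = 0.0413, but 0.107 without replicate 1 of LNCaP with vehicle and 0.619 after thinning). In C4-2 it was at 72.6, 73.9 and 86.5 CPM with vehicle and at 122, 119 and 112 CPM with R1881, a log2FC of 0.61 (SE 0.088, adjusted p = 0.000104). The groups did not overlap in either line.

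Counted together, 4 of the 8 genes rose and 1 fell with R1881 in LNCaP, where 12.3% of the 17162 genes tested were called (5.68% higher and 6.62% lower). The median log2FC was 1.02 over the 8 genes and -0.04 over all genes tested. In C4-2, 3 rose and 4 fell, where 9.07% of 16965 genes were called (4.29% higher and 4.78% lower), and the medians were -0.39 and -0.02. Every one of the 8 genes had enough counts to be tested in either line. By adjusted p alone, 7 of 8 genes differed in LNCaP, where 46.6% of genes did, and 8 of 8 in C4-2, where 32.8% did. The R1881 and vehicle libraries did not overlap for 7 of 8 genes in LNCaP, where 53.0% of genes tested did not, and for 8 of 8 in C4-2, where 46.9% did not.

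The size of the R1881 response differed between the lines for 4 members, tested as an interaction in all 18 libraries. As C4-2 minus LNCaP, the difference in log2FC was -3.31 for UGT2B10 (SE 0.19, adjusted p = 4.47e-11), -3.05 for UGT2B28 (SE 0.17, adjusted p = 4.33e-11) and -2.28 for UGT2B11 (SE 0.19, adjusted p = 2.67e-08). The response of these 3 genes was thus less positive in C4-2, and for UGT2B10 it was of the opposite sign. For UGT2B17 the difference was -1.09 (SE 0.15, adjusted p = 2.89e-05), a larger decrease in C4-2, which was -0.98 without replicate 3 of C4-2 siScr with R1881. UGT2B15 (-0.56, adjusted p = 0.00773) and UGDH (0.44, adjusted p = 0.00325) differed by less than the fold change threshold. Over all 18684 genes tested, 4.32% were called in this comparison and 2.33% were lower.

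**Figure D2:**
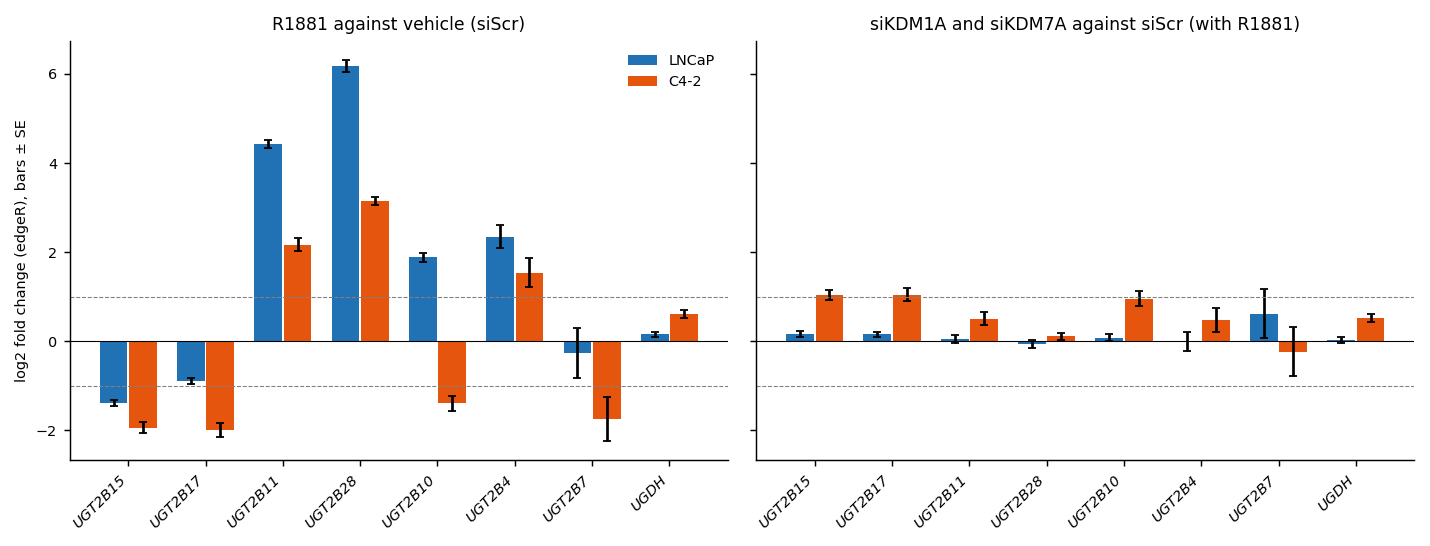
Log2 fold change (vertical axis, edgeR, with SE bars) of the 8 genes in LNCaP (blue) and C4-2 (orange). The left panel plots R1881 against vehicle and the right panel dual knockdown against siScr, both with R1881, and dashed lines mark a log2FC of 1 in either direction. In the right panel, bars past the line are those of UGT2B15 and UGT2B17 in C4-2, at 1.04 and 1.05.

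Dual knockdown of KDM1A and KDM7A was then compared with siScr, all cells having R1881. The siScr libraries with R1881 serve in both comparisons of a line, so the knockdown and R1881 values are given side by side and their likeness was not tested. In LNCaP none of the 8 genes was called, where 0.286% of genes were. By adjusted p alone none of the 8 differed, where 14.2% of genes did, and DESeq2 called none of them, where it called only 22 genes in all. At an unadjusted p under 0.05 there were 2, UGT2B15 and UGT2B17, and the share of all genes at that level is not given here. The libraries of the groups overlapped for all 8 genes, whereas 34.5% of genes tested did not overlap.

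With dual knockdown, UGT2B15 in LNCaP was at 447, 506 and 482 CPM (log2FC 0.17, SE 0.066, adjusted p = 0.0979). UGT2B17 was at 362, 371 and 362 CPM, a log2FC of 0.15 (SE 0.061, adjusted p = 0.101). Both pairs of groups overlapped in a single library, replicate 2 of siScr with R1881. Without it the log2FC were 0.25 for UGT2B15 and 0.22 for UGT2B17 (adjusted p = 0.0375 and 0.0425). Leaving out other libraries took adjusted p as high as 0.352 for UGT2B15 (replicate 2 of dual knockdown). For UGT2B17 it was as high as 0.303 (replicate 1 of siScr with R1881). UGT2B11, at 1007, 1049 and 949.6 CPM, had a log2FC of 0.05 (SE 0.081, adjusted p = 0.724), and UGT2B28, at 216, 215 and 202 CPM, one of -0.06 (SE 0.089, adjusted p = 0.699). UGT2B10 was at 45.2, 40.9 and 44.6 CPM (log2FC 0.08, SE 0.086, adjusted p = 0.572) and UGDH at 83.1, 80.9 and 86.7 CPM (log2FC 0.03, SE 0.060, adjusted p = 0.811). The low genes were at 3.15 to 4.37 CPM for UGT2B4 (log2FC -0.01, SE 0.21, adjusted p = 0.991) and 0.695 to 0.960 CPM for UGT2B7 (log2FC 0.62, SE 0.54, adjusted p = 0.491). The knockdown was also shallower in LNCaP than in C4-2, with a difference in log2FC, C4-2 minus LNCaP, of -2.04 for KDM1A and -1.56 for KDM7A (adjusted p = 2.36e-09 and 6.06e-07), and its part in the difference between the lines was not tested.

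In C4-2, dual knockdown raised UGT2B15 and UGT2B17. UGT2B15 reached 48.6, 52.6 and 56.8 CPM in the dual knockdown libraries (log2FC 1.04, SE 0.12, adjusted p = 3.74e-05). UGT2B17 was at 14.3, 17.4 and 17.7 CPM, a log2FC of 1.05 (SE 0.15, adjusted p = 0.000216). In each case the dual knockdown libraries lay above the siScr libraries with R1881 and below those with vehicle. The values sat close to the threshold. Without replicate 3 of siScr with R1881 they were 0.96 for UGT2B15 and 0.93 for UGT2B17, and without replicate 3 of dual knockdown 0.97 and 0.99, with adjusted p from 0.000379 to 0.00239, so that neither gene was called.

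Other members were higher in C4-2 under dual knockdown by less than the threshold. UGT2B10 was at 8.08, 9.66 and 10.8 CPM, a log2FC of 0.96 (SE 0.17, adjusted p = 0.000866), and this gene was called without replicate 1 of dual knockdown (1.07) or replicate 2 of siScr with R1881 (1.01). After thinning its log2FC was 0.52 (adjusted p = 0.222). UGDH was at 159, 173 and 177 CPM, a log2FC of 0.53 (SE 0.085, adjusted p = 0.000535). UGT2B11 was at 262, 279 and 275 CPM, a log2FC of 0.51 (SE 0.14, adjusted p = 0.0179). For UGT2B11 adjusted p was 0.112 with DESeq2's Wald test and from 0.0553 to 0.0844 without any 1 replicate of siScr with R1881 or without replicate 2 or 3 of dual knockdown. UGT2B28, at 107, 112 and 112 CPM, had a log2FC of 0.11 (SE 0.070, adjusted p = 0.280), UGT2B4, at 3.35 to 4.18 CPM, one of 0.48 (SE 0.27, adjusted p = 0.223) and UGT2B7 one of -0.23 (SE 0.56, adjusted p = 0.813). Thus 2 of 8 genes were called, both higher, where 3.94% of genes were called and 2.50% were higher, and the median log2FC was 0.52 against 0.01 over all genes. By adjusted p alone 5 of 8 differed, where 23.5% of genes did. The dual knockdown libraries lay above all siScr libraries for 7 of 8 genes, UGT2B28 and UGT2B4 included, and UGT2B7 overlapped. Over all genes tested 40.5% did not overlap and 21.2% lay above.

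An interaction term compared the knockdown response of the lines. No member was called by edgeR or by DESeq2, where 1.99% of genes were called by edgeR. An unadjusted p under 0.05 was seen for 5 members, and the share of all genes at that level is not given here. By adjusted p alone 4 members differed, all more positive in C4-2, where 10.9% of genes did. They were UGT2B17 (0.91, SE 0.15, adjusted p = 0.000536), UGT2B10 (0.90, SE 0.18, adjusted p = 0.00239), UGT2B15 (0.89, SE 0.14, adjusted p = 0.000252) and UGDH (0.52, SE 0.095, adjusted p = 0.00111). The UGT2B10 value was 0.54 after thinning (adjusted p = 0.310).

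The lines themselves differed most in UGT2B17 and UGT2B15. With vehicle, C4-2 held 19.6-fold less UGT2B17 (log2FC -4.29, SE 0.11, adjusted p = 4.45e-18) and 11.4-fold less UGT2B15 (log2FC -3.51, SE 0.10, adjusted p = 4.80e-17) than LNCaP. UGT2B28 was higher in C4-2 with vehicle (log2FC 1.92, SE 0.15, adjusted p = 3.26e-10, and 1.29 after thinning), whereas the UGT2B11 libraries of the lines overlapped (log2FC -0.08, SE 0.14, adjusted p = 0.668). UGT2B7 was called higher as well (1.31, adjusted p = 0.0441), but it held that call in only 3 of the 18 fits that left out a library. With vehicle 2 members were therefore called higher and 2 lower, where 24.2% of genes were called.

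With R1881, 5 members were called lower in C4-2 and none higher, where 23.8% of genes were called. Their log2FC were -5.39 for UGT2B17, -4.08 for UGT2B15, -3.09 for UGT2B10, -2.36 for UGT2B11 and -1.13 for UGT2B28, with adjusted p of 3.40e-10 or smaller. UGT2B28 was thus higher in C4-2 without androgen and lower with it, although its difference with R1881 was -0.98 without replicate 2 of LNCaP siScr with R1881. Under dual knockdown 4 members were lower and UGDH was higher (log2FC 1.02, SE 0.067, adjusted p = 2.54e-11), where 23.1% of genes were called. The UGDH value was 1.00 without replicate 2 of LNCaP dual knockdown and 0.98 without replicate 3 of C4-2 dual knockdown, both under the threshold.

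To compare levels between members, CPM were divided by exonic length to give FPKM, and each gene's share of the summed UGT2B FPKM was taken. In LNCaP with vehicle, UGT2B15 made up 61.4% ± 1.17 (SD, n = 3) and UGT2B17 35.5% ± 0.905 of UGT2B RNA. With R1881, UGT2B11 led with 45.8% ± 0.742, before UGT2B15 at 22.9% ± 0.678, UGT2B17 at 18.6% ± 0.588 and UGT2B28 at 9.96% ± 0.508. By read pairs in place of FPKM these shares were 48.6%, 21.5%, 16.6% and 11.1%, in the same order but further off than the SD. The SD cover the spread between libraries only, and the effect of reads lost between copies on the shares was not tested. UGT2B15 and UGT2B17 together went from 96.9% ± 0.318 to 41.5% ± 1.04, and were at 43.6% ± 1.19 under dual knockdown, where the ranges of the last 2 groups met at 42.3% and 42.4% without crossing.

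The makeup shifted the same way in C4-2. UGT2B15 and UGT2B17 together made up 68.3% ± 8.16 with vehicle, 11.4% ± 0.939 with R1881 and 16.7% ± 0.813 under dual knockdown. UGT2B11 and UGT2B28 together made up 23.2% ± 6.65, 85.8% ± 1.01 and 79.8% ± 1.09. With R1881 the order of single genes was UGT2B11 at 56.9% ± 0.275, UGT2B28 at 28.96% ± 0.785, UGT2B15 at 8.58% ± 0.669 and UGT2B17 at 2.80% ± 0.463, with no overlap between neighbours. By read pairs they were at 57.1%, 30.5%, 7.63% and 2.36%.

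**Figure D3:**
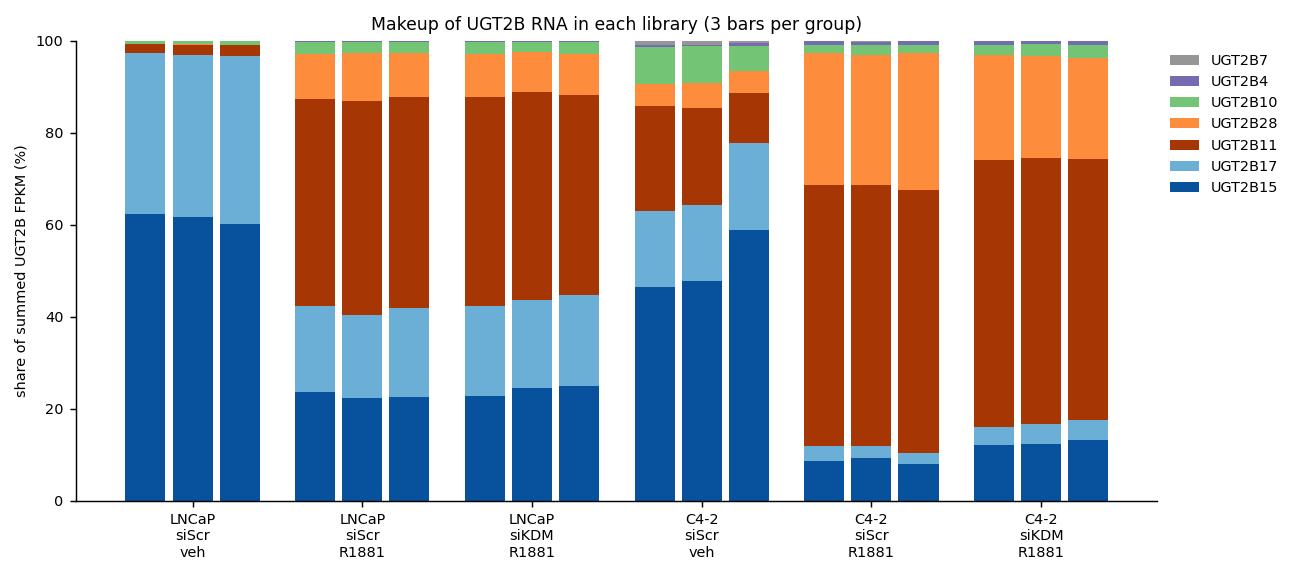
Share of each UGT2B gene in the summed UGT2B FPKM (vertical axis, percent) of each library, with 3 bars for each of the 6 groups (horizontal axis). The blue part, UGT2B15 and UGT2B17, fills 96.9% of the bars of LNCaP with vehicle on average and 11.4% of those of C4-2 with R1881.

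The summed level did not follow these shares in LNCaP. It was 825 FPKM ± 1.71 (SD, n = 3) with vehicle, 862 ± 109 with R1881 and 904 ± 30.3 under dual knockdown, and the R1881 libraries ran from 780.1 to 985 on both sides of the vehicle libraries. In C4-2 the sum was 88.5 ± 5.67, 135 ± 5.06 and 191 ± 7.60 FPKM, and the 3 groups did not overlap. UGT2B15 stood at 1.73 ± 0.0759 times the FPKM of UGT2B17 in LNCaP with vehicle and 1.23 ± 0.0422 times with R1881. In C4-2 this ratio was 2.95 ± 0.156 and 3.10 ± 0.440, which overlapped.

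The stretch before the start site was compared for members whose RefSeq entry (GRCh38.p14) was at hand, which were 5 of 8 (UGDH, UGT2B15, UGT2B10, UGT2B7 and UGT2B11). UGT2B17, UGT2B28 and UGT2B4 were not matched. The 250 bases before the start are shown for UGT2B15, lowered by R1881, for UGT2B11, raised by it, and for UGT2B10, which went opposite ways in the lines. They lie at chr4:68670653-68670902 (minus strand), chr4:69214749-69214998 (minus strand) and chr4:68815744-68815993 (plus strand). Capitals mark motif matches in UGT2B15 and, in UGT2B10, the 21 bases that differ from, or have no partner in, UGT2B11.
UGT2B15: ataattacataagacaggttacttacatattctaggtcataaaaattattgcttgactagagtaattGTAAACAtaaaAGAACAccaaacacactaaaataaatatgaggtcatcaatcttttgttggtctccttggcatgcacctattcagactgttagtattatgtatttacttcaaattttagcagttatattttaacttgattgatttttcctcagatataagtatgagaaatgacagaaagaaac
UGT2B11: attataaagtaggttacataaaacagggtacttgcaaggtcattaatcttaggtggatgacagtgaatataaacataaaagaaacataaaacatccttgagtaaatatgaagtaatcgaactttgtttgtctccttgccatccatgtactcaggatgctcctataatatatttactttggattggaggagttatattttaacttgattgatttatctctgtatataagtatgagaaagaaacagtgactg
UGT2B10: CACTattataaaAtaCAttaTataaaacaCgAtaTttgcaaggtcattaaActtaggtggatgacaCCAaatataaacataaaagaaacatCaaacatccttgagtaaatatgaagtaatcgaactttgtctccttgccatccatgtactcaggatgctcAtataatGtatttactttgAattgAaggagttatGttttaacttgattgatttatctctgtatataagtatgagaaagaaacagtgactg
UGT2B10 and UGT2B11 were 90.2% identical here. In C4-2 UGT2B10 fell and UGT2B11 rose with R1881, and any part of these stretches in that was not tested. UGT2B15 was 70.9% identical to UGT2B11. Both strands of the 5 windows were searched for 2 forkhead motifs (TGTTTAC, then TGTTTGC). A single arm of the androgen response element (AGAACA) was also sought, as was an arm of the HNF1 site (GTTAAT). Of the 5, UGT2B15 alone held any of these exact letters. Other spellings of the motifs were not sought, so the other windows may hold them. It had GTAAACA, the first forkhead motif read on the other strand, from 183 to 177 bases before the start and AGAACA from 172 to 167 bases before it. Of 35116 promoters of this length, 2.98% held the first forkhead motif, 3.23% the second, 12.4% AGAACA and 6.23% GTTAAT. These matches are letters in a window and are not measured binding.

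Of the genes that surround glucuronidation, the enzymes and transporters for UDP-glucuronate supply and use had no call in either line, among 9 tested in LNCaP and 7 in C4-2. Over all genes tested, 12.3% were called with R1881 in LNCaP and 9.07% in C4-2. With dual knockdown the shares were 0.286% and 3.94%. By adjusted p alone, 6 of the 9 were higher with R1881 in LNCaP, where 23.5% of all genes were. Of 15 other UGT genes, 2 were tested in LNCaP and 1 in C4-2. UGT1A1, the bilirubin transferase, was called higher with R1881 in LNCaP, on 1 count with vehicle and 28 with R1881, a ratio of 29.05 (95% exact counting interval 4.80 to 1188). That count lay in replicate 3, and the ratio was 16.8 (2.78 to 688) without replicate 2 of LNCaP with vehicle. Without replicate 3 no vehicle count was left. With an assumed floor of 3 counts over the group the UGT1A1 ratio was 6.24. The lower limit of the 95% exact counting interval, which assumes no floor, was 4.75. Of 11 regulators reported for UGT2B genes, 5 were tested and none was called within a line. Given the shares of all genes above, the absence of calls in such small lists is not read as a result about them.

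Of 5 listed efflux pumps of steroid conjugates, 3 had enough counts to be tested with R1881 in each line. In both lines 2 of them were called higher and 1 lower, where 12.3% of all genes were called in LNCaP and 9.07% in C4-2. ABCC4, an exporter of glucuronides and sulfates, rose from 146 ± 4.44 to 1494 ± 103 CPM in LNCaP (log2FC 3.34, SE 0.061) and from 444 ± 30.3 to 908 ± 8.18 CPM in C4-2 (log2FC 1.03, SE 0.078, but 0.996 and not called without replicate 1 of C4-2 with vehicle). ABCC1, a pump of the same family, rose by 1.20 in LNCaP and 1.11 in C4-2. ABCG2, an exporter of sulfate conjugates, was lower by log2FC of -5.02 and -1.82. In LNCaP this rested on 180 counts with vehicle and 5 with R1881. Under dual knockdown none of the 3 pumps tested was called in either line, where 0.286% of genes were in LNCaP and 3.94% in C4-2.

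Among androgen-metabolising enzymes, 3 of 13 tested rose with R1881 in LNCaP, where 5.68% of all genes tested did. In C4-2 3 of 15 rose and 1 fell, against 4.29% and 4.78% of all genes. HSD17B11, a 17-beta-hydroxysteroid dehydrogenase, rose by 2.11 in LNCaP and 1.13 in C4-2. CYP11A1, which cleaves the cholesterol side chain, rose by 3.84 and 5.03, from mean levels of 0.275 and 0.239 CPM. HSD17B2, which oxidises testosterone to androstenedione, was called in LNCaP (2.62) on 5 counts with vehicle and 33 with R1881. Its call was lost without replicate 2 or 3 of LNCaP with vehicle (adjusted p = 0.0556 and 0.0526). All 5 vehicle counts lay in replicate 1. Without it the HSD17B2 ratio was 8.86 against the same floor of 3 counts, and the lower limit of the exact interval was 6.81. AKR1D1, the steroid 5-beta-reductase, was called in C4-2 (5.85) on 4 counts with vehicle and 326 with R1881, a ratio of 62.6 (95% exact counting interval 24.2 to 231). Without replicate 1 of C4-2 with vehicle the AKR1D1 ratio was 130.2 (23.2 to 5157) on 1 vehicle count, and without replicate 2 it was 35.4 (13.7 to 131). For CYP11A1 in C4-2 the ratio was 33.9 (17.7 to 74.7) on 9 vehicle counts and 52.8 (17.95 to 257) without replicate 1. HSD3B1, which makes androstenedione from DHEA, fell by 1.58 in C4-2. Under dual knockdown in C4-2, 3 of 15 rose, where 2.50% of all genes did. They were HSD17B6 (1.12), CYP11A1 (1.61) and SULT2B1, a sulfotransferase of sterols (1.66). In LNCaP none of the 13 was called, where only 0.286% of all genes were. Median log2FC with R1881 were 0.60 in LNCaP and 0.44 in C4-2 over the enzymes tested.

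**Figure D4:**
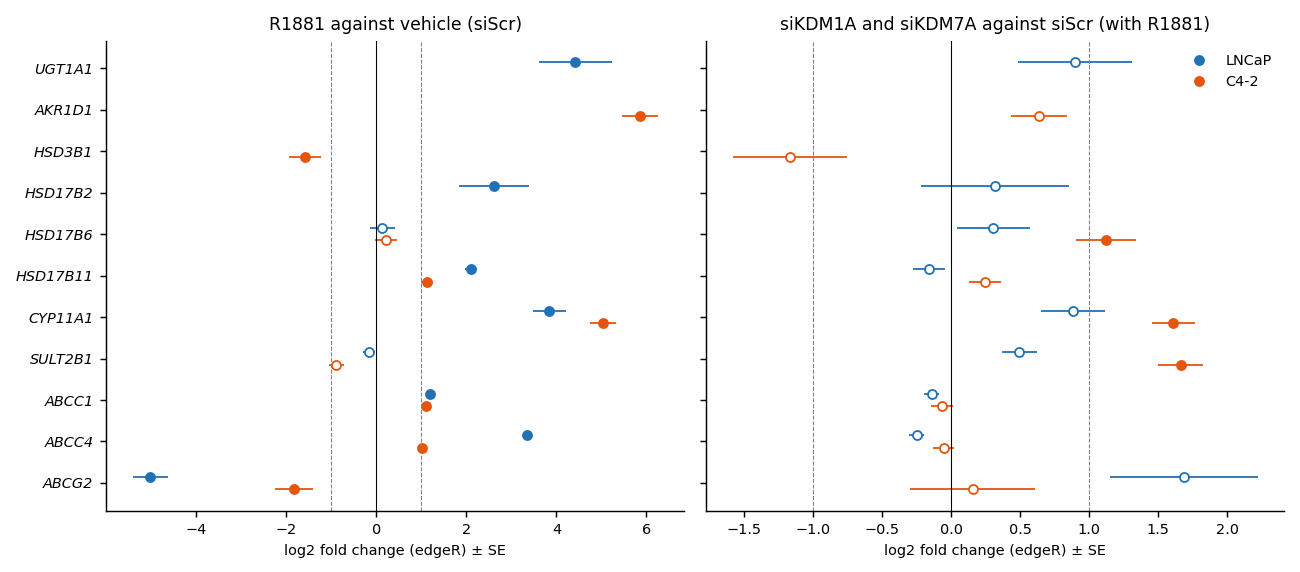
Log2 fold change (horizontal axis, edgeR, with SE bars) of the surrounding pathway genes called in at least 1 comparison within a line (vertical axis), in LNCaP (blue) and C4-2 (orange). The left panel is R1881 against vehicle and the right panel dual knockdown against siScr with R1881. Filled points were called, open points were not, and genes without a point were not tested. The UGT1A1 value rests on 1 count with vehicle, and ABCC4 and ABCC1 lie right of the dashed line in both lines on the left.

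Of the 5 UGT2B pseudogenes, 3 were called in at least 1 line with R1881, where 12.3% of all genes tested were called in LNCaP and 9.07% in C4-2, and they are named here after their values were seen. In LNCaP, UGT2B24P had 2 counts with vehicle and 481 with R1881, a ratio of 249.5 (95% exact counting interval 68.7 to 2066). Both vehicle counts lay in replicate 1. Without it the UGT2B24P ratio was 129 against the floor of 3 counts, and the lower limit of the exact interval was 105. Without replicate 2 the ratio was 144 (39.8 to 1196). UGT2B25P had 3 counts and 278 counts, a ratio of 96.1 (32.6 to 469), or 224 (39.9 to 8880.4) without replicate 1 of LNCaP with vehicle. In C4-2 the log2FC of UGT2B24P was 3.59 on 5 counts with vehicle, a ratio of 12.5 (5.12 to 39.4), and the ratio was 32.3 (5.64 to 1293) on 1 count without replicate 1 of C4-2 with vehicle. The log2FC of UGT2B25P there was 2.47 on 14 counts with vehicle, of which 7 came from the shallow replicate 3, at 2.04 CPM against 0.155 and 0.229 CPM. Without replicate 3 it was 3.53, and without replicate 1 it was 1.80. UGT2B25P shares exon bases with UGT2B28 and identical stretches with UGT2B11 and UGT2B28. The spans of UGT2B24P and UGT2B28 overlap on the same strand without shared exon bases, as do those of UGT2B27P and UGT2B11. How far the counts of these 3 pseudogenes are separate from those of the members was not tested. UGT2B27P was called in LNCaP (1.24), but not without replicate 2 of LNCaP siScr with R1881 (0.88).

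The genes whose pattern was most like UGT2B11 were sought, a gene taken for its mean of 421 CPM over the 18 libraries, the highest of the UGT2B genes on that scale. This mean pools groups most of which had R1881, and in LNCaP with vehicle UGT2B15 and UGT2B17 made up most of the UGT2B RNA. By Pearson's r of log2(CPM + 1) over 18 libraries the most alike were GNMT (0.991), PEX10 (0.990), CREB3L4 (0.990), HHIPL2 (0.989) and AC018865.1 (0.985). Of the members, UGT2B28 followed at 0.923 and UGT2B4 at 0.878. UGT2B10 had 0.670 over all libraries, 0.996 within LNCaP and -0.49 within C4-2, each line holding 9 libraries. These values describe libraries that share 3 treatments and 2 lines, and they are no measure of shared control.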

How the data were processed

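RNA Seq of siRNA-treated LNCaP and C4-2 cells was used, in 18 libraries of 6 groups named by the sample titles. The deposited values were whole-number counts of read pairs per gene. Per the file headers and the submitters' processing notes, the authors trimmed reads with Trim Galore and cutadapt, checked them with FastQC, aligned them to GRCh38 with STAR and counted them with featureCounts 1.5.0-p1 on Ensembl 83, without strand and without multi-mapping reads. Gene symbols came from GENCODE 29.

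Total counts per library ran from 3182604 to 20154243, which limits genes of few counts most, and counting intervals cover counting error only. Counts were tested with edgeR 4.0.16 in R 4.3.3 (limma 3.58.1), using TMM scaling, filterByExpr (minimum count 10, minimum total 15) and a quasi-likelihood F-test (2-sided), adjusted over all genes tested by the Benjamini-Hochberg method. Comparisons within a line were fitted on its 9 libraries, and those between lines and the interactions on all 18. Called genes had a log2FC of 1 or more in size with adjusted p below 0.05, and SE was the log2FC divided by the square root of F. CPM used effective library sizes, and FPKM divided CPM by the Length column. An exact permutation test of 3 against 3 libraries cannot go below p = 0.1, so none is given.

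Alternatives were RLE scaling, DESeq2 1.42.0, other filters, other sets of libraries, a block for replicate number, leaving out single libraries, thinning to the smallest library and adjusted p alone. Scripts were tested on simulated data. Python 3.11.15, pandas 2.3.3, numpy 2.4.6, scipy 1.17.1, matplotlib 3.10.9 and Biopython 1.88 were used for levels, sequences and plots. Sequences were read from RefSeq (GRCh38.p14) promoters and GENCODE 29 transcripts. Protein sequences were not used here. The genes and lists were chosen with earlier results of these data known. Genes named were the 8 members, the checks of knockdown and androgen, listed genes called in at least 1 comparison within a line, and the 5 genes most like UGT2B11.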

Additional observations from a re-analysis of the deposited data

Results flagged for a closer look

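The response to R1881 differed between the lines for 4 genes, each by the interaction test in edgeR given above. As C4-2 minus LNCaP, the difference in log2FC was -3.31 for UGT2B10, -3.05 for UGT2B28, -2.28 for UGT2B11 and -1.09 for UGT2B17. UGT2B10 was the gene whose response changed sign, with 3 of 3 R1881 libraries above all vehicle libraries in LNCaP and 3 of 3 below them in C4-2. What sets the lines apart was not tested.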

How the results depend on the processing

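No called value of the 8 genes changed direction. Of values that were not called, 4 of 283 changed sign under other settings and 16 of 558 with a library left out, UGT2B7, UGT2B4, UGDH, UGT2B11 and UGT2B28 among them. Apart from adjusted p alone, which changed 15 of 72 calls, 5 of 517 values changed call under other settings and 31 of 1008 with a library left out. For the surrounding genes each library was left out in turn, an alternative chosen after seeing the data. The number of members called under dual knockdown in C4-2, 2 in the report, was 5 by adjusted p alone, 1 when thinned (UGT2B15 0.93) and 0 to 3 with a library left out. It was 0 without replicate 3 of C4-2 siScr with R1881 and without replicate 3 of C4-2 dual knockdown. For the difference between lines in the knockdown response, 0 in the report, it was 4 by adjusted p alone and 0 to 2 with a library left out, 1 without replicate 1 of C4-2 siScr with R1881 and 2 without replicate 1 of C4-2 dual knockdown. DESeq2's Wald test called 3 members between lines with vehicle, where UGT2B7 had adjusted p = 0.127, and it called 4438 genes in all. UGT2B7 had too few counts to be tested when thinned.

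Over all genes, thinning lowered the calls with R1881 from 2110 to 1209 in LNCaP and from 1539 to 884 in C4-2, and with dual knockdown in C4-2 from 669 to 318. Between lines they went from 4530 to 2843 with vehicle, from 4443 to 2703 with R1881 and from 4314 to 2580 under dual knockdown, and in the interactions from 808 to 459 and from 371 to 188. With dual knockdown in LNCaP, 49 genes were called, 22 by DESeq2, and 16, 32, 14 and 17 without replicates 2 and 3 of siScr with R1881 and replicates 1 and 2 of dual knockdown. By adjusted p alone the counts, in the order of R1881 in LNCaP and C4-2, dual knockdown in LNCaP and C4-2, the 3 comparisons of lines and the 2 interactions, were 8002, 5571, 2431, 3983, 11007, 10895, 10764, 2615 and 2028. Same-numbered libraries did not deviate together (18 pairs, r from -0.0735 to 0.0723). Whether libraries of a number shared a culture or preparation cannot be told from this. With replicate number as a block, calls over all genes were 2084 against 2110 with R1881 in LNCaP and 1462 against 1539 in C4-2, and among members the block ended the call of UGT2B7 between lines with vehicle (1.21, adjusted p = 0.0722).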
